A study of Caenorhabditis elegans with 2 samples.

Results

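Genes encoding the centromere and kinetochore of Caenorhabditis elegans were examined for chromatin immunoprecipitation (ChIP-seq) peaks of the protein B0019.2, which RefSeq annotates as containing an SPK domain. The set was a named list of 10 genes, hcp-3, knl-2, hcp-4, knl-1, knl-3, ndc-80, hcp-1, hcp-2, bub-1 and bub-3, out of 19973 protein-coding genes on the 6 nuclear chromosomes. All 10 names were found in the Ensembl annotation of assembly WBcel235. The peaks came from 1 group of 2 biological replicates of whole young adults aged 63.5 h, of strain RW12288, grown from L1 larvae starved after bleaching. Both replicates carried a CRISPR insertion that fuses B0019.2 at its own locus to TY1, EGFP and 3xFLAG, and both were precipitated with an anti-GFP antibody. Control libraries were not analysed here, so no value below compares the tagged strain with another strain. A whole animal holds germline, embryonic and somatic cells, and the lists cannot tell apart in which of them a peak arose.

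The chromosomes of C. elegans are holocentric: centromeric chromatin and kinetochores form along the whole length of each chromosome and not at a single site. Centromeric chromatin is built on HCP-3, the CENP-A variant of histone H3, which is deposited with the help of KNL-2 and is read by HCP-4, the CENP-C homologue. On this base stands the microtubule-binding KMN network, which includes KNL-1, KNL-3 and NDC-80, with the CENP-F-like proteins HCP-1 and HCP-2 and the checkpoint proteins BUB-1 and BUB-3 further out. The peaks concern the DNA at the genes of these proteins, not the centromeres that the proteins form.

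The promoter window of a gene ran from 1000 bp before its annotated start to 200 bp after it, and a gene was counted where a peak summit fell in the window. The main list was the authors' conservative list of 900 peaks, all of them among 55591 ranked candidates. Replicate 1 alone gave 524 peaks and replicate 2 alone gave 496. The authors' signal value of a peak has no stated scale and ranks peaks only within a list. The ranked lists also score each candidate by −log10 of its IDR, an estimate of how likely a call is not to recur between inputs, and all 900 main peaks had a score of at least 2. In the ranked list 988 candidates had such a score, so some that reached it are not main peaks. The highest signal value was 2020 in the ranked list and 697 in the main list. Read counts are not part of the lists, and the depth behind each peak is unknown. The genes were listed with earlier results of these data known, and their counts are therefore given beside the background with no test.

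Of the 10 genes, 5 had a main summit in the promoter window, namely hcp-3, hcp-4, hcp-1, knl-3 and bub-1. Among all protein-coding genes the share was 3.84% (766 of 19973). The 5 genes spanned centromeric chromatin, the KMN network, the CENP-F-like proteins and the checkpoint. The other 5, knl-2, knl-1, ndc-80, hcp-2 and bub-3, had no main summit in the window or in the body. The other deposited thresholded list also held window summits of 5 of the 10 genes, against 3.79% of protein-coding genes (756). The list of replicate 1 held 4, against 2.61% (521), and that of replicate 2 held 5, against 2.44% (487). With gene bodies included the count in the main list was still 5 of 10, against 4.80% of protein-coding genes (959 of 19973). In the lists of both replicates at once, 4 of the 10 genes had a window summit, against 1.83% of protein-coding genes (365 of 19973). Those 4 were hcp-3, hcp-4, hcp-1 and knl-3.

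The sequence at the summits of hcp-3 and hcp-1 is given here, because hcp-3 had the highest signal value of the set and hcp-1 was the gene with the E2F core. Each stretch reaches 50 bp to either side of the summit and is written on the strand of the gene, on WBcel235 from RefSeq. Capitals mark matches on either strand to the 3 motifs searched, which were the CHR element TTTGAA, the E2F core TTCCCGC and the GA repeat GAGAGA. The hcp-3 stretch is chrIII:9617060-9617160 on the minus strand and the hcp-1 stretch is chrV:6593843-6593943 on the plus strand. For contrast, the stretch at the strongest window candidate of knl-1, which missed the threshold, is chrIII:8250420-8250520 on the plus strand.
hcp-3: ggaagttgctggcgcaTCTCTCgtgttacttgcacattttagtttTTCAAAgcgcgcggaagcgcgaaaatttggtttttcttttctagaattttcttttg
hcp-1: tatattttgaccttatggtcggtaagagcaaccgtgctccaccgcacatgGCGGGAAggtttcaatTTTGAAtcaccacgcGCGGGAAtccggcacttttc
knl-1: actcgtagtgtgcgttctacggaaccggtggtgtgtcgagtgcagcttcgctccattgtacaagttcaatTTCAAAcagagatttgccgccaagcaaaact

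**Figure D1:**
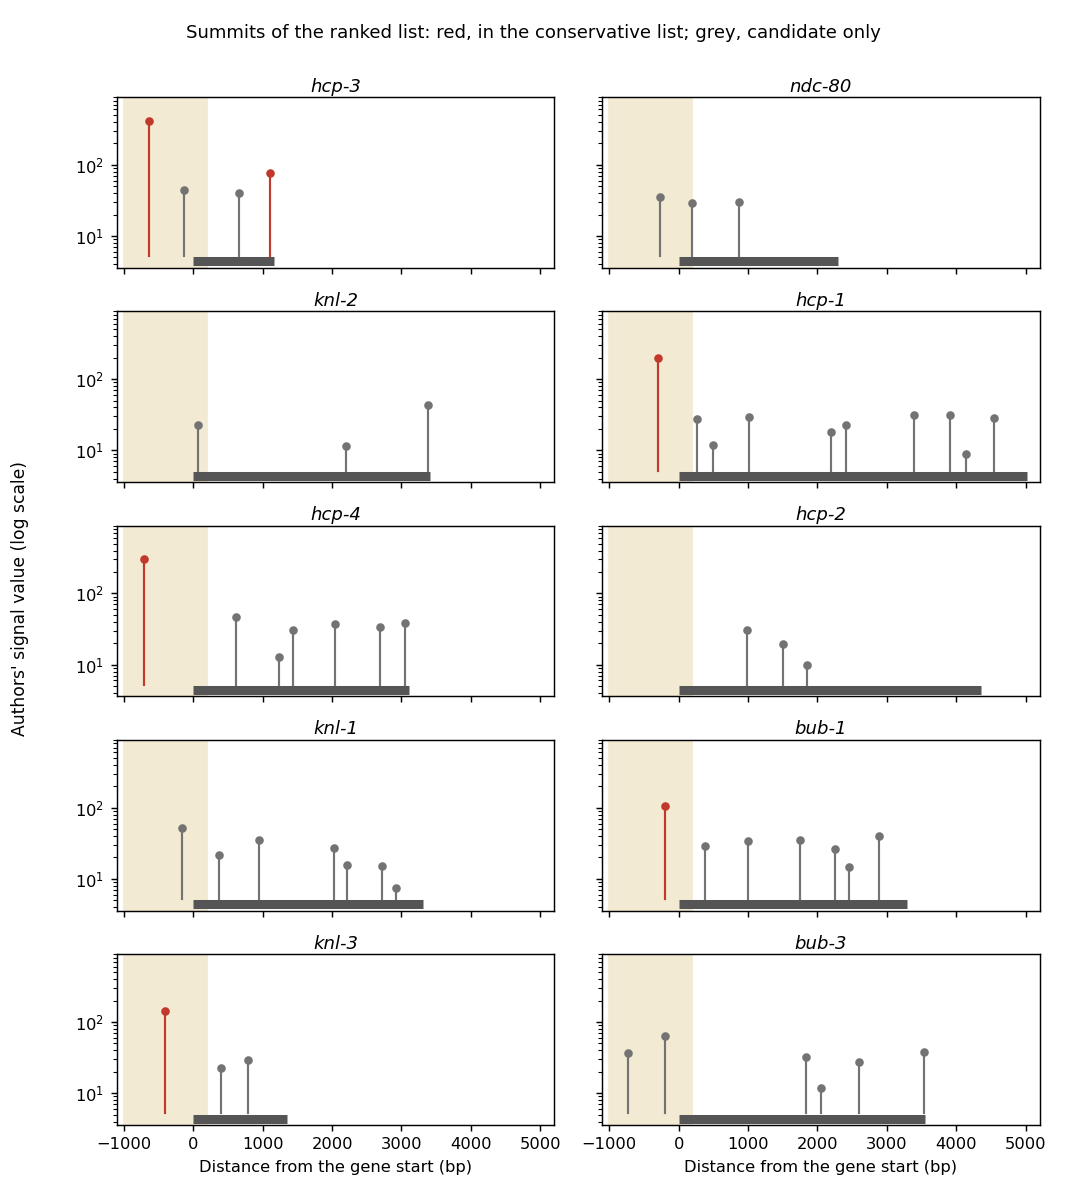
Signal value (log scale) of every candidate of the ranked list of both libraries against distance from the start of each of the 10 genes, on the strand of the gene; the shaded band is the promoter window and the grey bar is the gene. Red summits are in the conservative list: 5 genes have one in the window, hcp-3 has a second one near its 3′ end, and the remaining summits are grey candidates.

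Among the genes of centromeric chromatin, hcp-3 had the strongest peak of the set. This gene encodes the histone that marks centromeric nucleosomes and lies on chromosome III at 9615306 to 9616470 on the minus strand (WBGene00001831). Its peak, at 9617037 to 9617189, ranked 10 of 900 by signal value (414), with the summit 640 bp upstream of the gene start in intergenic sequence. In the replicate lists its rank was 13 of 524 in replicate 1 and 10 of 496 in replicate 2, and the summit was at the same base in both, 657 bp upstream. No other gene had this summit in its window, and the next coding gene upstream, hlh-11, points away from hcp-3 with a gap of 3240 bp. Closer to the start, 128 bp upstream, lay a weak candidate of signal value 44.0 that ranked 6024 of 55591.

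A second main peak lay at the other end of hcp-3, at 9615232 to 9615501. Its summit was in the 3′ UTR, 61 bp inside the annotated gene end, with a signal value of 76.2 and rank 702 of 900. The piRNA gene 21ur-9360 had this summit in its window, and the nearest gene start of any class was that of F58A4.6. Neither replicate list held this peak. As a candidate it ranked 976 of 45502 in replicate 1 and 685 of 38525 in replicate 2, with −log10 IDR of 1.07 and 1.23, below the threshold in both. Body summits outside the window were found for 1.11% of protein-coding genes in the main list (222 of 19973), and hcp-3 was the only one of the 10 genes with one.

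The CENP-C gene hcp-4 had the next strongest peak. It lies on chromosome I at 3862833 to 3865938 on the minus strand (WBGene00001832), and its peak, at 3866555 to 3866690, ranked 28 of 900 by signal value (303). The rank was 35 of 524 in replicate 1 and 28 of 496 in replicate 2. The summit was intergenic, 706 bp upstream of hcp-4 in the main list, 711 bp in replicate 1 and 679 bp in replicate 2. It also fell in the window of pgk-1, whose product is the glycolytic enzyme phosphoglycerate kinase, 897 bp upstream of that gene. The gene hcp-4 was the nearer of the 2 divergent starts.

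The third gene of this group, knl-2, had no peak in any of the 4 thresholded lists. Its product is a Myb-domain protein needed for the deposition of HCP-3. Its only window candidate in the ranked list of both libraries lay 70 bp downstream of the start, with a signal value of 22.7 and rank 38143 of 55591. Replicate 2 had a candidate there too, at rank 17043 of 38525, and replicate 1 had none in the window. The strongest candidate in the gene, with a signal value of 43.9, lay in its 3′ UTR, which overlaps the 3′ UTR of acdh-3. The products of knl-2 and hcp-3 act in the same step, yet their promoter windows stood at ranks 38143 and 15 of the same list.

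Among the listed KMN genes knl-1, knl-3 and ndc-80, only knl-3 had a main peak. KNL-3 is a subunit of the Mis12 complex, which joins the network to chromatin. The gene lies on chromosome V at 1869213 to 1870558 on the plus strand (WBGene00020392), and its peak, at 1868666 to 1868935, ranked 190 of 900 by signal value (143). The summit was 412 bp upstream in the main list and in both replicates, where the peak ranked 185 of 524 in replicate 1 and 189 of 496 in replicate 2. This position is within an annotated 5′ UTR of T10B5.3, a gene on the opposite strand that overlaps knl-3, but outside the promoter window of that gene.

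The genes of the scaffold KNL-1 and of the microtubule-binding subunit NDC-80 had candidates but no peaks. For knl-1 the summit lay 162 bp upstream, with a signal value of 52.3 and rank 2699 of 55591. It ranked 2589 of 45502 in replicate 1, while the strongest window candidate of replicate 2 lay 75 bp upstream at rank 15601 of 38525. For ndc-80 the summit lay 275 bp upstream, with a signal value of 35.0 and rank 15203. Its rank was 8384 in replicate 1 and 37122 in replicate 2. The −log10 IDR was 0.32 at knl-1 and 0.05 at ndc-80.

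The paralogous CENP-F-like genes differed. The gene hcp-1, on chromosome V at 6594194 to 6599208 on the plus strand (WBGene00001829), had a peak at 6593758 to 6594027 that ranked 83 of 900 by signal value (196). The intergenic summit was 301 bp upstream in the main list, 308 bp in replicate 1 and 281 bp in replicate 2, and lay in no other window. The rank was 197 of 524 in replicate 1 and 47 of 496 in replicate 2. The gene hcp-2, also on chromosome V (9645859 to 9650211, plus strand), had no window candidate in the ranked list of both libraries. Replicate 1 had one, 13 bp downstream of the start, at rank 16441 of 45502, and replicate 2 had none. The other deposited ranked list placed a candidate 61 bp upstream of hcp-2 at rank 24485 of 45081.

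Of the checkpoint genes, bub-1 had a main peak, the weakest of the 5 by signal value. It encodes a kinase that binds KNL-1 and serves both the spindle checkpoint and chromosome alignment, and lies on chromosome I at 7251941 to 7255223 on the plus strand (WBGene00000275). Its peak, at 7251614 to 7251883, ranked 349 of 900 by signal value (106), with an intergenic summit 192 bp upstream. It was shared with the divergent gene lin-61, which encodes a protein with MBT repeats and whose start is 467 bp from the summit. The peak was in the list of replicate 2, at rank 381 of 496, and not in that of replicate 1. The ranks among all candidates of each library were alike, 491 of 45502 in replicate 1 and 476 of 38525 in replicate 2, while the −log10 IDR was 1.66 and 2.73. The missing call in replicate 1 was thus a candidate that fell short of the IDR threshold of 2.

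The gene of its partner BUB-3 had no main peak. The strongest candidate lay 193 bp upstream of bub-3 (chromosome II, 13726062 to 13729610, plus strand), with a signal value of 63.1, rank 1326 of 55591 and −log10 IDR of 0.99. It ranked 961 in replicate 1, with −log10 IDR of 1.39, and the strongest window candidate of replicate 2, 101 bp upstream, ranked 7146, with 0.05. The gap of 262 bp to the divergent gene Y54G9A.7 places the summit closer to the start of that gene than to that of bub-3. Against the threshold of 2, the window summits just inside and just outside were therefore those of bub-1 (3.28) and bub-3 (0.99), and the 3′ peak of hcp-3 was nearer, at 2.67. Against the window edge of 1000 bp, the farthest candidate inside was that of bub-3 at 727 bp, and the nearest outside was a candidate 1010 bp upstream of bub-1 with a signal value of 49.9 and −log10 IDR of 0.13.

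**Figure D2:**
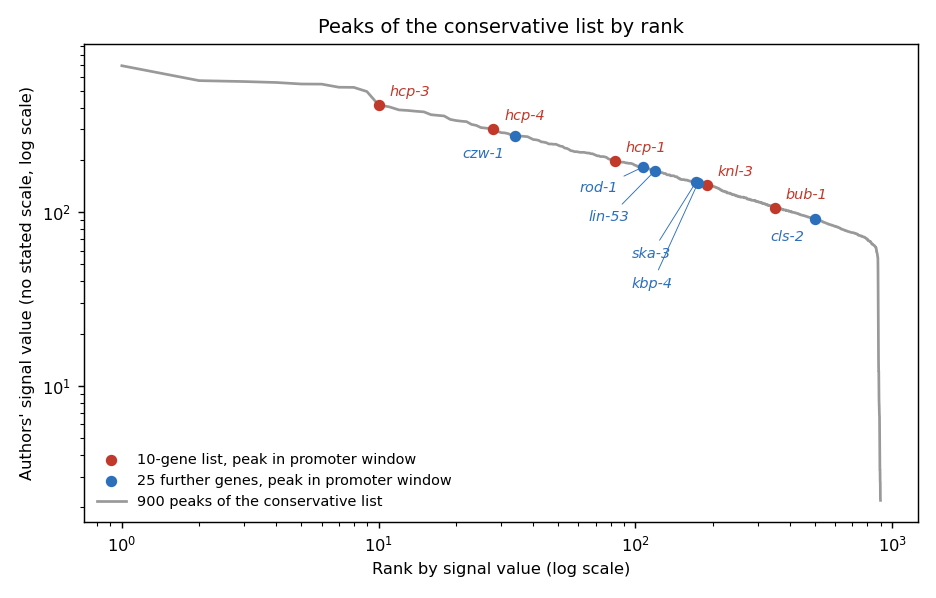
Signal value against rank, both on log scales, for the 900 peaks of the conservative list (grey line), with window peaks of the 10 genes in red and of 25 further centromere, kinetochore and checkpoint genes in blue. The red points run from rank 10 (hcp-3, 414) to rank 349 (bub-1, 106).

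The peaks of the 5 genes were on the strong side of the list. Their median signal value was 196, against 107 for the strongest window peak of the 766 protein-coding genes with one, and the lowest of them, 106 at bub-1, was close to that median. By the signal value of the strongest window peak, hcp-3 was 6th, hcp-4 22nd, hcp-1 90th, knl-3 216th and bub-1 390th among the 766 genes. Peaks of hcp-3 and hcp-4 were narrow, 153 and 136 bp, while those of hcp-1, knl-3 and bub-1 had the width of 270 bp that 91.6% of main peaks share. The 100 peaks with the highest signal values had a median width of 164 bp. The summits of replicates 1 and 2 lay 0 bp apart at hcp-3 and at knl-3, 27 bp apart at hcp-1 and 32 bp apart at hcp-4. For the 339 main peaks found in both replicate lists the median was 15.0 bp and the quartiles were 6.0 and 32.0 bp.

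**Figure D3:**
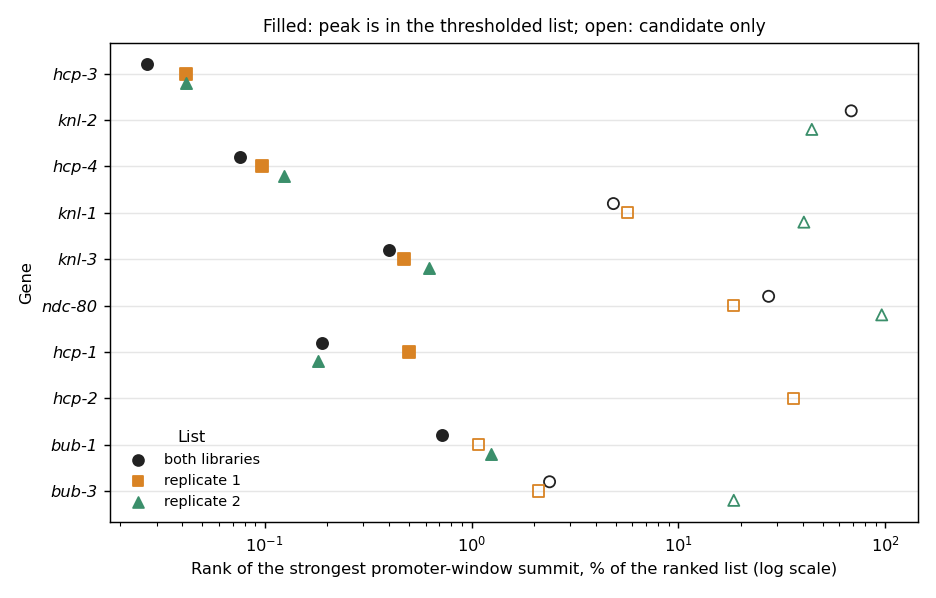
Rank of the strongest promoter-window summit of each of the 10 genes as a percentage of the ranked list (log scale), for both libraries together and for each replicate. Filled symbols are in the thresholded list and open symbols are candidates only: hcp-3, hcp-4, knl-3 and hcp-1 are filled in all 3 lists, bub-1 is open in replicate 1, and hcp-2 has only a replicate 1 point.

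All 5 window summits lay upstream of the gene start, as did those of 95.4% of the 766 genes (731). Their median distance was 412 bp, against a median of 255 bp for the 766 genes. Those of hcp-3 and hcp-4 were over 500 bp upstream, as were 20.5% of the 766 (157 genes). In a narrower window, 500 bp upstream to 100 bp downstream, the count was 3 of 10, against 3.04% of protein-coding genes, because hcp-3 and hcp-4 dropped out. In a wider one, 2000 bp upstream to 500 bp downstream, it was 5, against 4.97%. Each of the 5 genes was the nearest gene start of any class to its summit, which held for 56.7% of the 766 genes and for 2.17% of all protein-coding genes (434). The summits of hcp-3, hcp-1 and knl-3 were in no other promoter window, and those of hcp-4 and bub-1 were shared with 1 divergent coding gene each.

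**Figure D4:**
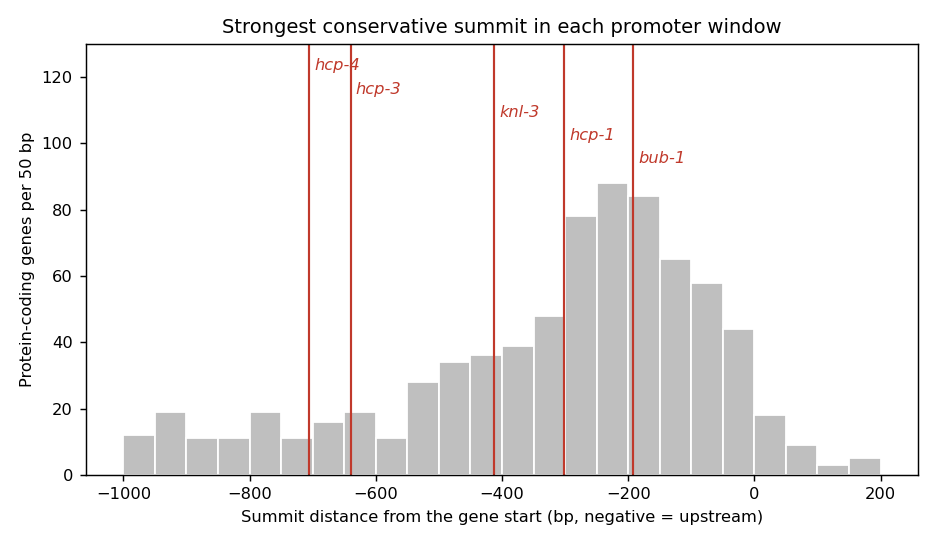
Distance of the strongest conservative summit from the gene start for the 766 protein-coding genes with one in the promoter window (grey bars, genes per 50 bp), with the 5 centromere and kinetochore genes as red lines. The lines for hcp-4 (706 bp upstream) and hcp-3 (640 bp) lie beyond 500 bp, as do 157 of the 766 genes, and the line for bub-1 (192 bp) is the nearest to the gene start.

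Apart from the 3′ peak of hcp-3, the bodies of the 10 genes held no main peak outside the windows. The ranked list held 41 candidates in the bodies of the 10 genes outside the windows. Over the whole ranked list, 988 of 55591 candidates reached a −log10 IDR of 2. Of the 41, only the 3′ peak of hcp-3 did, and the other 40 were below 1. Their signal values ran from 7.47 to 47.4, the highest being in an intron of hcp-4 at rank 4305. The longest gene, hcp-1, held 9 such candidates, of which the best ranked 21811 of 55591. Within the windows, 9 of the 10 genes had a candidate, against 51.9% of protein-coding genes (10361 of 19973), and the exception was hcp-2. The count was also 9 in the ranked lists of replicate 1, against 48.5% (9685), and of replicate 2, against 44.0% (8789), and it was 10 in the other ranked list, against 45.1% (8999).

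The letters TTTGAA, the CHR element known in mammals from the promoters of cell cycle genes, were present within 50 bp of the window summit at all 5 genes. In the hcp-3 sequence above the match covers the summit itself, and at hcp-1 it lies 16 bp from it. The distance was 3 bp at hcp-4, 22 bp at bub-1 and 33 bp at knl-3. The motif is short, and 20.1% of the 900 main peaks had it (181), as did 25.2% of the 548 main peaks in a coding promoter window and 21.8% of the 54691 other candidates. Windows 300 bp to the left and right of the main summits had it in 22.7% and 24.6% of cases, so main summits as a whole did not carry it more often than their flanks. Among the 4 genes with a window candidate only, knl-1 and knl-2 had it and bub-3 and ndc-80 did not. In a list of 25 further centromere, kinetochore and checkpoint genes it was at 2 of 6 main window summits and at 5 of 17 window candidates below the threshold. A match describes the letters and is not evidence of a bound site.

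TTCCCGC, a core of E2F binding sites, was found at 1 of the 5 genes, hcp-1, where it occurs 2 times: once at the summit and once 31 bp from it. Of the 900 main peaks 4.67% had this motif (42), as did 6.93% of those in a coding promoter window, against 1.56% and 1.78% of the windows 300 bp to the left and right. The GA repeat GAGAGA was found at hcp-3 alone of the 5, 29 bp from the summit. It was at 11.7% of main peaks, against 6.0% and 5.78% of the same left and right windows. The GC content of the 101 bp around the summit was 40.6% at hcp-3, 48.5% at hcp-4, 50.5% at hcp-1, 51.5% at knl-3 and 51.5% at bub-1. The main peaks had a median of 47.5% with quartiles of 40.6% and 52.5%, and the other candidates of the ranked list had a median of 40.6%. GC content was not measured in the left and right windows. Whether the shares of the GC-rich TTCCCGC follow GC content was not tested.

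Of the same 25 further genes, 6 had a main summit in the promoter window, against the background of 3.84%, and 19 did not. The strongest was czw-1, which encodes the Zw10 subunit of the Rod-Zw10-Zwilch complex that recruits dynein and checkpoint proteins to kinetochores. Its peak had a signal value of 275 and rank 34, with the summit 250 bp upstream and also in the window of F20D12.12. The gene rod-1 of the same complex had a peak of 182, shared with pycr-4. The others were lin-53 (signal value 173, shared with nra-2), a histone chaperone gene linked to HCP-3 deposition, and ska-3 (149), a Ska complex gene whose summit also lay in the windows of rps-12 and 2 snoRNA genes. Then came the KMN gene kbp-4 (147) and the CLASP gene cls-2 (90.8). For kbp-4 the nearest start was that of rab-18 and for cls-2 that of R107.5, so 4 of the 6 were the nearest gene to their summit. Peaks of czw-1, rod-1, lin-53, ska-3 and kbp-4 were in both replicate lists, and that of cls-2 was in the list of replicate 2 only.

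Most of the KMN network and the checkpoint had no main peak in the promoter window. The same held for most protein-coding genes, of which 3.84% had one, so an absence does not set these genes apart. Of 7 further KMN genes, kbp-4 had one and mis-12, kbp-1, kbp-2, kbp-3, kbp-5 and him-10 did not. None of the 4 further checkpoint genes, mdf-1, mdf-2, san-1 and fzy-1, had one. The depolymerising kinesin gene klp-7 had no window peak but 2 main peaks in its body, of signal value 151 in an intron and 90.6 in the 3′ UTR. The piRNA gene 21ur-9572 had the intronic summit in its window, and K11D9.7 had the nearest start to the 3′ UTR summit. The intronic peak was in both replicate lists and the 3′ UTR peak was in neither. Of the 25 further genes, klp-7 was the only one with a main body summit outside the window, against 1.11% of protein-coding genes.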

How the data were processed

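Peak lists of 2 ChIP-seq libraries, biological replicates of 1 group, were used. Chromatin was sonicated to 200 to 800 bp, per the labels. Coordinates are on ce11, per the deposited readme files, which is the UCSC name of WBcel235. Which aligner and peak caller made them is not stated in the sources used here. The deposited signal value of each peak was computed by the authors, who state no scale. A −log10 global IDR stands beside it in the deposited ranked lists. Joint lists came from both alignments and from a further input left undescribed by the readme files. The ranked list used with the conservative list was the one in which every conservative peak has −log10 IDR of at least 2. Altogether 16 per-input columns of the joint ranked lists, which carry no sample name, were left out. No unit of the lists is a count, and depth is unknown.

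Genes came from Ensembl release 115. Summits were the peak start plus the deposited offset, and ranks were taken by signal value within a list. All 10 genes were named, with the genes that share their summits and any further gene with a main summit. The genes, the further list and the motifs were chosen with earlier results of these data known. No test was made, and counts are set beside the share of all protein-coding genes. Assignment of summits was tested on simulated data. The alternatives tried were the second deposited list, the 450 main peaks of highest signal value, each library's list, windows of 500 and 100 bp and of 2000 and 500 bp, transcript starts, peak overlap, nearest starts, ranking by IDR and sequence within 100 bp. Motif shares in promoter peaks, in other candidates and in flanking windows were added after seeing the data. Python 3.11.15, numpy 2.4.6, pandas 2.3.3 and matplotlib 3.10.9 were used.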

Additional observations from a re-analysis of the deposited data

How the results depend on the processing

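The count of 5 of the 10 genes with a main window summit was also 5 in the other deposited list, among the 450 main peaks of highest signal value, with the window of 2000 and 500 bp, with every transcript start, with peak overlap and with nearest gene starts only. Most of these settings could not lower it. A wider window and peak overlap only add genes, and each of the 5 genes has 1 annotated transcript start. The lowest rank of the 5 peaks, 349, is within the 450. The other deposited list also comes from both libraries and holds the same 5 peaks. Leaving out a replicate gave 4 to 5, the lower value being the list of replicate 1, which lacks bub-1. With the window of 500 and 100 bp the count was 3, against 3.04% of protein-coding genes, and the count of nearest genes was also 3, since the summits of hcp-3 and hcp-4 lie farther upstream. The background share of 3.84% was 2.46% among those 450 peaks and 2.44% to 2.61% in the list of a single library. It was 4.97% in the wide window and, as shares added after seeing the data, 4.09% with every transcript start and 4.04% with peak overlap. The 6 of 25 further genes were 8 in the other deposited list, where ska-1 and mdf-2 were added, 5 among the 450 peaks, 5 to 6 with 1 replicate left out and 4 in the narrow window. Within 100 bp of the summit TTTGAA was at 5 of 5 genes, against 39.4% of main peaks and 46.9% of those in a coding promoter window. At that distance it was also at 3 of the 4 listed genes with a window candidate only. Among the further genes it was at 4 of 6 main window summits and at 9 of 17 window candidates below the threshold. TTCCCGC was then at 2 of 5, against 8.44% and 11.5%, and GAGAGA at 1 of 5, against 19.9% and 19.7%. In the other deposited ranked list the ranks of hcp-3, hcp-4, hcp-1, knl-3 and bub-1 were the same numbers as in the main one (15, 42, 105, 223 and 400). That list holds the same 5 peaks with the same signal values, so these ranks could hardly differ. Ranked by −log10 IDR in the main ranked list, hcp-3 and hcp-4 shared rank 1, and hcp-1, knl-3 and bub-1 stood at 130, 211 and 413. The window candidates of bub-3 and knl-1 moved from 1326 to 2202 and from 2699 to 7696. Those of ndc-80 (15203 by signal value) and knl-2 (38143) shared rank 29959. No paired analysis was possible because the 2 libraries form 1 group. The lists hold no counts, so an absent peak cannot be told apart from too little depth.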
